A study of Saccharomyces cerevisiae with 58 samples.

Results

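In the first cell cycle of wild-type budding yeast, transcript levels at 126, 134, 142 and 150 min were compared with those at 86, 94, 102 and 110 min over all measured genes. The comparison takes 8 of the 58 arrays of the series, which are 8 of its 28 wild-type arrays, chosen by the strain and time in the sample titles. Culture 1 gave the arrays at 94 and 110 min and at 126 and 142 min, and culture 2 gave those at 86 and 102 min and at 134 and 150 min. The replicate is the culture, so each window has n = 2, and the 2 arrays of a culture within a window were averaged. The wild type is strain BF264-15DU, mating type MATa, and carries bar1, a mutation of the protease that degrades alpha-factor. Per the labels, G1 cells were isolated by elutriation (centrifugal separation by cell size), and all cultures grew at 30 °C in dextrose medium with 1 M sorbitol. The mutant strain, set beside the wild type near the end of these results, has the same background, disruptions in the 6 B-type cyclin genes CLB1 to CLB6, and CLB1 under the GAL1 promoter. Values are log2(intensity + 1) of Affymetrix probe sets, and a difference of 1 is a 2-fold change.

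Passage from G1 into S phase in budding yeast begins when the G1 cyclins Cln1, Cln2 and Cln3 activate the Cdc28 kinase. The transcription factors SBF (Swi4 with Swi6) and MBF (Mbp1 with Swi6) then turn on a wave of genes for budding, DNA synthesis and chromosome cohesion. The S-phase cyclins Clb5 and Clb6 drive replication, and histone transcripts accumulate while DNA is copied. Later, Fkh2 with Ndd1 and Mcm1 activates the CLB2 cluster, whose products include the mitotic cyclins Clb1 and Clb2, the polo kinase Cdc5, the anaphase activator Cdc20 and the factor Swi5. As cells leave mitosis, Swi5 enters the nucleus and helps switch on genes for daughter cell separation and for the Cdk inhibitor Sic1, the last wave before the next G1.

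Of 5449 genes tested with limma, 249 changed between the windows at an adjusted p under 0.05, which is 4.57%. At 126 to 150 min 98 genes (1.80%) were higher and 151 genes (2.77%) were lower. An unadjusted p under 0.05 in the same limma fit was reached by 1084 of the 5449 genes. The median difference was 0.90 among the genes that rose, -0.95 among those that fell and -0.0021 over all genes. A difference of at least 1 was reached by 43 of the risers and 68 of the fallers. With the culture as a block in the fit, 502 genes (9.21%) were called, 234 higher and 268 lower, and they included all 249. With 1 culture left out, the spread is that between the 2 single arrays per window of the other culture, taken at different times. There, 29 genes were called without culture 1 and 0 without culture 2, where 890 had an unadjusted p under 0.05. All 4 later arrays lay on 1 side of all 4 earlier arrays for 90 of the 98 risers and 150 of the 151 fallers, against 20.3% of all genes. The genes were called on these same arrays, so this only describes them. In synchronised bulk cultures, a change in the share of cells at a stage and a change in RNA per cell cannot be told apart.

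The 15 largest falls included genes of Start, DNA synthesis and cohesion. PCL1, a cyclin for the Pho85 kinase made at Start, had the largest fall of all called genes, followed by ESC8, a gene linked to silencing, YOX1, a homeodomain repressor, and PRY1, a sterol-binding secreted protein. The other falls among the 15 largest were MCD1, YEL076C-A, CLN2, POL12, MSA2, KCC4, CDC21, CDC45, PDS5, MSH6 and AXL2, with log2 differences from -1.73 to -1.58. The transcripts that rose were led by HOF1, an F-BAR protein of the cytokinesis ring, at 2.95 ± 0.26 (SE, n = 2 cultures per window). YMR030W-A, CHS2, DSE4, YNL058C, SWI5, AIM44, YMR001C-A, SFG1, MMR1, HST3, PST1, IRC8, EGT2 and PCL9 followed, with differences from 2.62 down to 1.90.

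**Figure D1:**
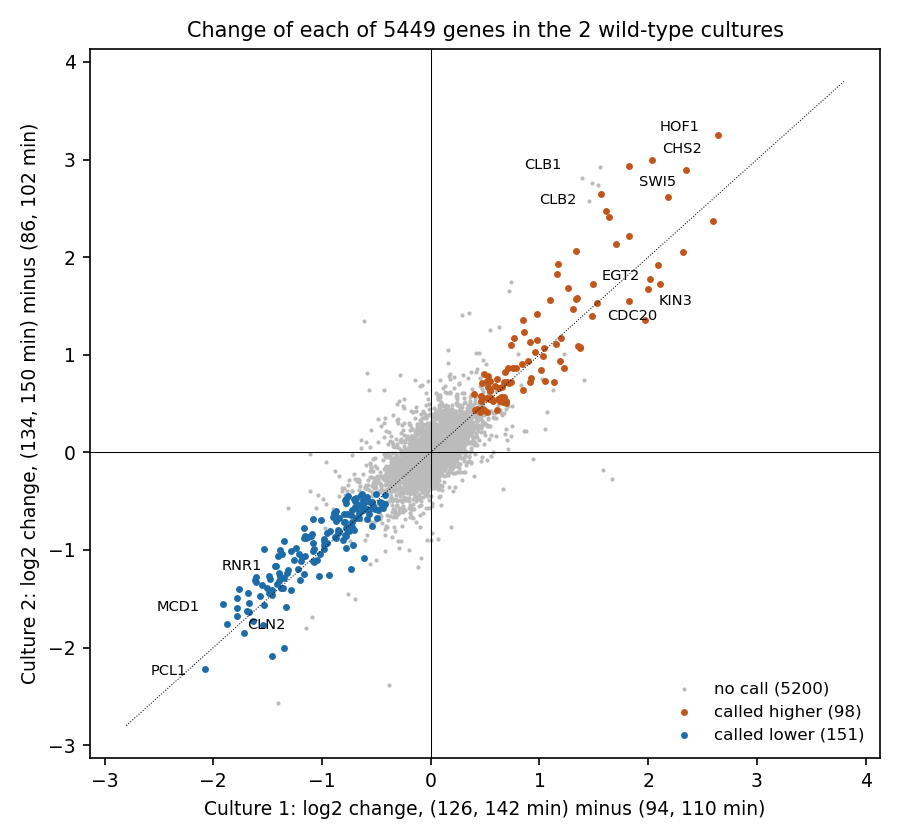
Each point is 1 of 5449 genes, with its log2 change from 86 to 110 min to 126 to 150 min in culture 1 on the x axis and in culture 2 on the y axis; the dotted line marks equal change. The 98 genes called higher and the 151 called lower have the same sign in both cultures, and CLB1 and CLB2 lie well above the line, with no call. The interval sampled is longer in culture 2 than in culture 1.

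The plot of both cultures sets their changes side by side. All 249 called genes had the same sign in culture 1 and culture 2, as did 73.9% of all genes. The calls were made on these same culture means, so the shared sign of the called genes is no separate support. Across the 5449 genes the culture 1 difference correlated with that of culture 2 at r = 0.81, where the points of a culture share its arrays. Among the 249 genes, 33 risers lay below the background level of 9.32 at 86 to 110 min and 27 fallers lay below it at 126 to 150 min. The background is the 95th percentile of 1746 probe sets of another organism on the same arrays, and 2 of these were called higher and 0 lower (0.115%) when fitted with the genes.

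The stages of the windows were read from marker genes, since the sample titles give only strain, time and replicate. The times and markers were chosen with earlier results of these data known, so the markers are no independent check. All 9 of 9 G1/S markers (CLN1, CLN2, PCL1, RNR1, POL1, CDC21, MCD1, CLB5 and CLB6) fell. Of 8 mitotic markers, HOF1, SWI5, CDC5, CDC20 and KIN3 rose, and CLB1, CLB2 and ALK1 were called with the culture as a block. The 5 markers of the M/G1 boundary (SIC1, ASH1, EGT2, CTS1 and PCL9) also rose, and the histone markers of S phase, HTA1, HTB1, HHT1 and HHF1, were not called. The later window therefore holds transcripts of mitosis and of the M/G1 boundary together.

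Markers of mating type and of sporulation were read beside these. The mean of 4 MATa-specific genes lay between 12.80 and 13.60 on the earlier and between 12.80 and 13.14 on the later arrays. The pheromone receptor STE2 and the a-factor genes belong to this set, and 1 member, MFA1, fell. Of 3 MATalpha-specific genes, 2 lay below background in both windows, and the set's mean was 8.70 to 9.01 in the earlier and 8.84 to 9.07 in the later window. All 4 sporulation markers lay below background, at set means of 7.99 to 8.09 in the earlier and 8.19 to 8.26 in the later window, although SPS4 rose by 0.81 ± 0.09 (adjusted p = 0.0126) below that level.

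**Figure D2:**
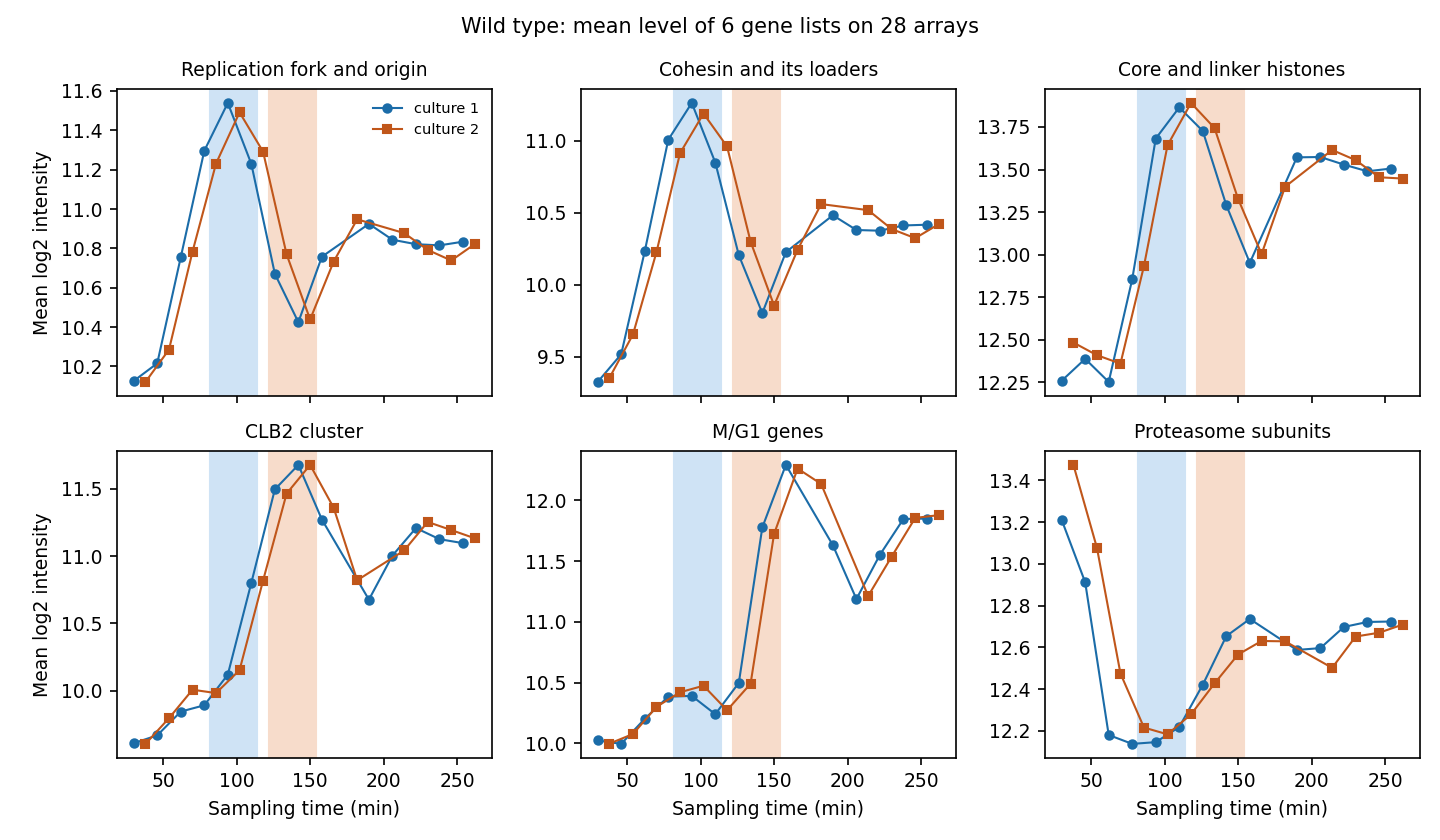
Each panel shows the mean log2 intensity of a gene list on the 28 wild-type arrays against sampling time in minutes, with 1 line per culture; blue shading marks 86 to 110 min and orange shading 126 to 150 min. Replication and cohesin transcripts peak in the blue window, the CLB2 cluster is highest in the orange one, and the M/G1 list climbs at 142 and 150 min.

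The cultures ran out of step. At each of 6 times from 78 to 158 min the culture 1 array was nearer to the culture 2 array taken 8 min later than to the one taken 8 min earlier. At 126 min, for example, the mean absolute log2 difference over genes was 0.123 to the 134 min array and 0.196 to the 118 min array. Each culture was sampled at its own times, so the windows of culture 1 and culture 2 hold no time in common. Transcripts that climbed steeply around 110 min had unlike values in the cultures within the earlier window; the clearest case among the regulators was CLB2.

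G1 cyclins are the activators of Start. CLN2 stood at 11.66, 11.87, 12.12 and 11.23 at 86, 94, 102 and 110 min and at 10.20, 10.69, 9.33 and 9.89 at 126, 134, 142 and 150 min. Every later array lay below every earlier one, and the lowest values came at 142 and 150 min. CLN2 fell by 1.69 ± 0.21 (SE), a 3.23-fold decrease (adjusted p = 0.0193). CLN1 fell by 1.36 ± 0.09 (adjusted p = 0.00387), while CLN3, which acts upstream of both, differed by 0.21 ± 0.11 (adjusted p = 0.399). CLN3 read 11.56 at 110 min, 11.23 at 118 min and 12.28 and 12.22 at 142 and 150 min. The earlier window of culture 2 was also moved to 102 and 118 min, after the values were seen. By limma CLN3 then differed by 0.42 (adjusted p = 0.0352, and 0.00489 with the block).

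The Pho85 cyclins moved in opposite directions. PCL1 read 11.24, 11.63, 11.56 and 10.71 in the earlier window and 9.43, 9.55, 8.76 and 8.81 in the later one. The windows did not overlap, and the change was -2.15 ± 0.10, or 4.43-fold (adjusted p = 0.00277). PCL9, a Pho85 cyclin of early G1, read 8.05, 7.98, 8.24 and 7.91 in the earlier window, all below background, and 8.83, 8.91, 11.10 and 10.93 in the later one. Its 126 and 134 min arrays were above every earlier array but still below background, and those at 142 and 150 min were the highest. PCL9 rose by 1.90 ± 0.10 (adjusted p = 0.00277). Of 9 genes of the list of G1 and Pho85 cyclins, 3 fell and 2 rose, and the other riser, SIC1, is a Cdk inhibitor of S-phase entry.

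Regulators of the G1/S wave differed in their response. Of 14 transcription factors and regulators, 5 fell and 0 rose (6 and 0 with the block), with a list median of -0.57. The list's fallers were YOX1, a repressor at Mcm1 sites (-1.78 ± 0.14, adjusted p = 0.00601), MSA2, an SBF and MBF co-activator (-1.68 ± 0.27, adjusted p = 0.0388), SWI4, the DNA-binding subunit of SBF (-1.46 ± 0.09, adjusted p = 0.00387), TOS4, a forkhead-associated protein (-1.44), and HCM1, the forkhead factor of S phase (-1.02). SWI4 stood at 10.30, 10.86, 10.68 and 9.90 in the earlier and at 9.08, 8.84, 9.02 and 8.96 in the later window. The windows did not overlap, and all 4 later values were below background.

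Partners and inhibitors of these factors gave no call. SWI6 differed by 0.03 ± 0.12, MBP1 by 0.27 ± 0.10 and WHI5, the inhibitor of SBF, by -0.21 ± 0.20. NRM1, the co-repressor of MBF, was highest at 110 min in culture 1 and at 118 min in culture 2. It read 9.87, 11.19, 11.19 and 11.80 at 86 to 110 min, 11.88 at 118 min, and 11.53, 11.57, 10.59 and 10.76 at 126 to 150 min. The 2 windows overlapped, its cultures disagreed in sign (-0.43 and 0.63), and the mean difference was 0.10 ± 0.32 (adjusted p = 0.913). With the earlier window of culture 2 moved to 102 and 118 min, a choice made after the values were seen, the difference turned to -0.40 and was called (adjusted p = 0.0280, and 0.00423 with the block).

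Replication genes fell as a group. Of 36 genes of the replication fork and origins 23 fell and 0 rose, with a median of -0.73 over all 36, where 2.77% of all genes fell and their median difference was near 0. The fallers with the largest differences were POL12, a subunit of DNA polymerase alpha (-1.68 ± 0.14, adjusted p = 0.00662), CDC45, a helicase component (-1.65 ± 0.08, adjusted p = 0.00277), POL1, the polymerase alpha catalytic subunit (-1.56 ± 0.09), DPB2, a polymerase epsilon subunit (-1.55 ± 0.13), and PRI2, a primase subunit (-1.38 ± 0.09). POL12 stood at 11.89, 12.00, 12.07 and 11.32 in the earlier and at 10.20, 10.53, 9.85 and 9.97 in the later window. The 110 min array was the lowest of the earlier window, and it still lay above all 4 later arrays.

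Genes that load the helicase at origins gave no call. The 14 MCM helicase and licensing genes had 0 calls by limma in either direction, 0 with the culture as a block and 0 genes with an unadjusted p under 0.05, and a median of -0.06. MCM3, a subunit of the replicative helicase, went through a trough that spanned the end of the earlier window and the start of the later one. It read 12.13, 11.56, 11.97 and 10.63 at 86 to 110 min, 11.04 at 118 min, and 10.43, 10.69, 11.36 and 11.41 at 126 to 150 min. The windows overlapped, and the difference was -0.60 ± 0.32 (adjusted p = 0.383). MCM2 differed by -0.43 ± 0.19 (adjusted p = 0.314).

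Repair genes of G1/S gave falls as well. Of 22 DNA repair and checkpoint genes of G1/S 13 fell and 0 rose (median -0.62). MSH6, a mismatch recognition protein, changed by -1.61 ± 0.08, RAD53, the checkpoint kinase, by -1.38 ± 0.07, RTT107, a repair scaffold, by -1.26 ± 0.15, ELG1, an unloader of the PCNA clamp, by -1.08 ± 0.07 and RAD5, a helicase of damage tolerance, by -1.05 ± 0.07. Of 9 deoxynucleotide supply genes, with a median of -0.17, 3 fell and 6 gave no call (1 of them rose with the block). The fallers were CDC21, the thymidylate synthase (-1.65 ± 0.08), RNR1, the large subunit of ribonucleotide reductase (-1.33 ± 0.08), and CDC8, the thymidylate kinase (-0.52 ± 0.08). RNR1 stood at 13.79, 14.18, 14.06 and 13.83 in the earlier and at 13.09, 13.09, 12.14 and 12.23 in the later window, and the windows did not overlap.

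Cohesin, the ring that holds sister chromatids together, had the lowest median of the 52 gene lists, at -0.99 over 9 genes. Of these, 6 fell and 0 rose, and with the culture as a block 8 fell. MCD1, the kleisin subunit that separase cuts at anaphase, fell by 1.73 ± 0.11 (adjusted p = 0.00387). Its arrays stood at 11.21, 12.07, 11.94 and 11.55 and then at 10.31, 10.50, 9.48 and 9.54, with no overlap. PDS5, a cohesin regulator, changed by -1.64 ± 0.10, the ring subunits SMC3 by -1.47 ± 0.14 and IRR1 by -1.38 ± 0.11, and ECO1, the acetyltransferase that locks the ring, by -0.99 ± 0.09. Among 5 condensin genes 0 were called by limma, and 1 had an unadjusted p under 0.05.

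Histone genes were at a high level in both windows. HTA1, a gene of histone H2A, stood at 13.23, 14.21, 14.07 and 14.30 at 86 to 110 min, at 14.30 at 118 min and at 14.13, 14.09, 13.62 and 13.62 at 126 to 150 min. The windows overlapped and the difference was -0.09 ± 0.21 (adjusted p = 0.867). Across the 9 core and linker histone genes 0 were called by limma and 0 had an unadjusted p under 0.05, the median was -0.03, and the list mean was 12.93 at 86 min, 13.86 at 110 min and 13.33 at 150 min. With the earlier window of culture 2 moved as for NRM1, 3 of the 9 fell, and HTA1 changed by -0.36 (adjusted p = 0.0317). Several core histone genes have near-identical copies, and the probe sets may not separate them. Histone regulators were less uniform. Of 15 genes, ASF1, a chaperone of H3 and H4 (-1.45 ± 0.10), SPT21, an activator of histone genes (-1.21 ± 0.08), and RLF2, a subunit of chromatin assembly factor (-0.83 ± 0.07), fell, and HST3, a deacetylase of H3, rose by 2.02 ± 0.25 (adjusted p = 0.0193). With the block 7 of the 15 fell and 1 rose.

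**Figure D3:**
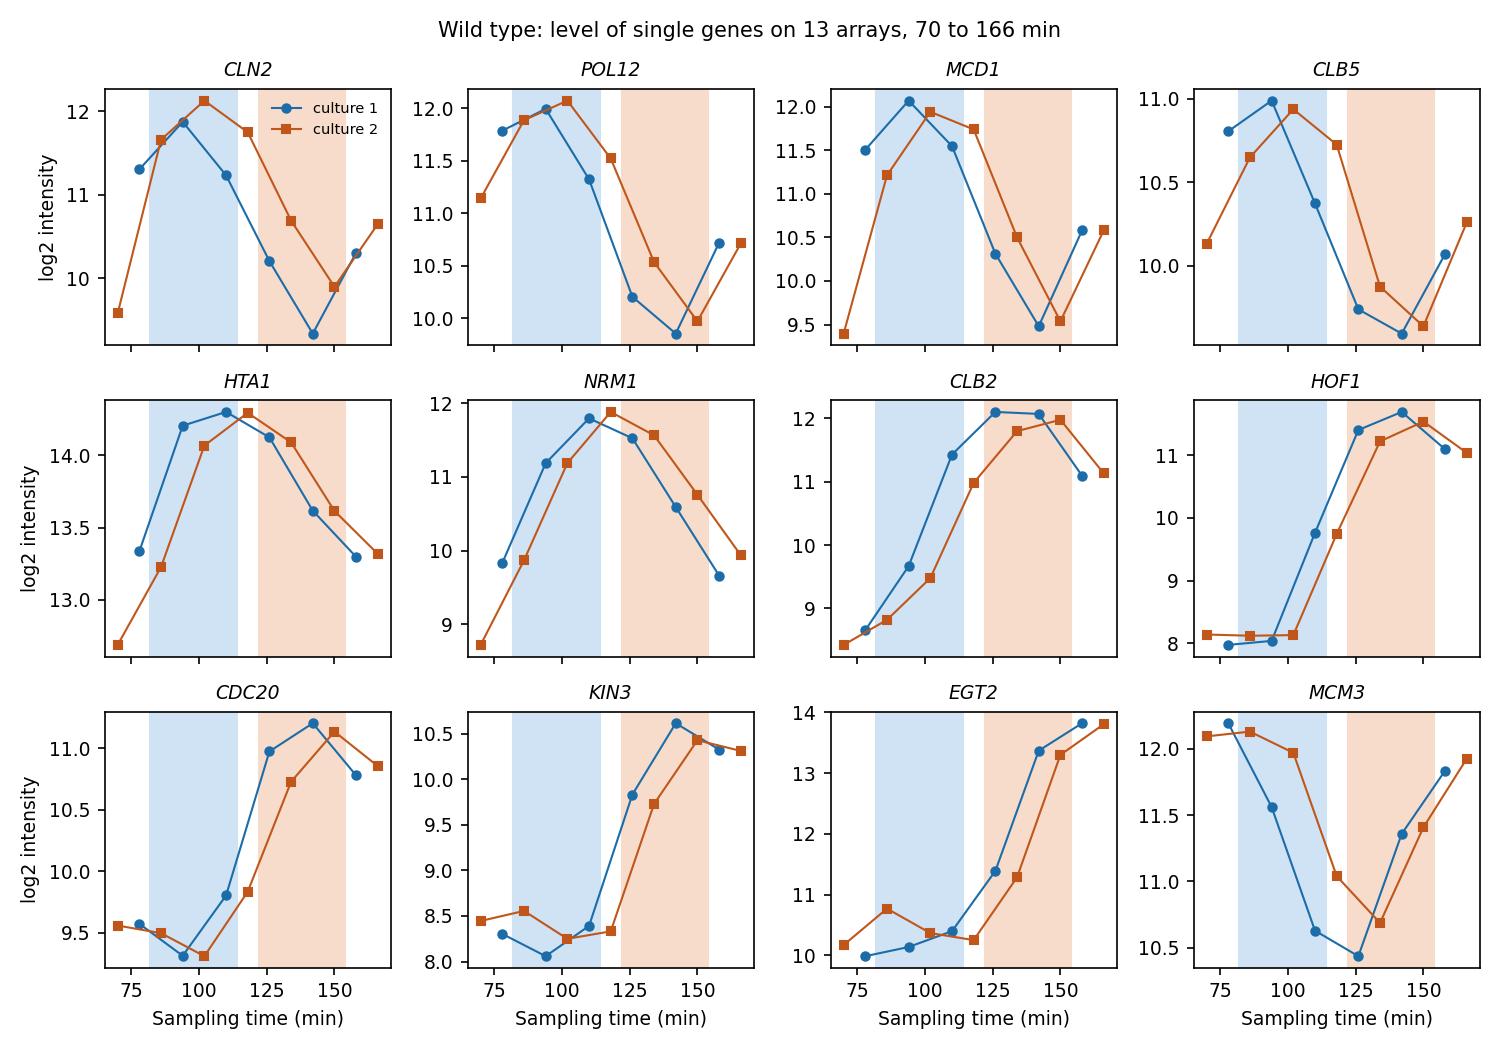
The panels show log2 intensity of 12 genes on the 13 wild-type arrays from 70 to 166 min, with 1 line per culture and the windows shaded as blue (86 to 110 min) and orange (126 to 150 min). CLN2, POL12, MCD1 and CLB5 decline between the windows, HTA1 and NRM1 are highest at 110 min in culture 1 and at 118 min in culture 2, CLB2, HOF1, CDC20, KIN3 and EGT2 climb, and MCM3 is lowest at 126 min in culture 1 and at 134 min in culture 2.

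The 6 B-type cyclin genes differed in direction. CLB5 stood at 10.65, 10.99, 10.94 and 10.37 in the earlier and at 9.74, 9.87, 9.59 and 9.64 in the later window. The windows did not overlap, and CLB5 fell by 1.03 ± 0.08 (adjusted p = 0.00602). CLB6 fell by 0.85 ± 0.07 (adjusted p = 0.00678). CLB3 and CLB4, cyclins of spindle assembly, differed by -0.19 ± 0.12 and 0.00 ± 0.12 and gave no call.

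The mitotic cyclins CLB1 and CLB2 had among the largest differences, and their changes were unlike in the 2 cultures, whose intervals differ in length. CLB2 stood at 8.82, 9.67, 9.48 and 11.43 at 86, 94, 102 and 110 min and at 12.10, 11.80, 12.07 and 11.98 at 126, 134, 142 and 150 min. The 110 min array of culture 1 was already close to the later window, although all later arrays were higher. The difference was 2.14 ± 0.46 (adjusted p = 0.083), with changes of 1.54 in culture 1 and 2.74 in culture 2, and the adjusted p was 0.0298 with the culture as a block. CLB1 differed by 2.10 ± 0.42 (adjusted p = 0.0725, and 0.0427 with the block). BUD4, AIM20 and ALK1 differed by 2.02 to 2.24 and were likewise called with the block, and these 5 genes are all those with a difference of at least 2 and no call. With the earlier window of culture 2 moved as for the histones, the differences were smaller, at 1.60 for CLB2 (adjusted p = 0.00357) and 1.44 for CLB1 (adjusted p = 0.00091).

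**Figure D4:**
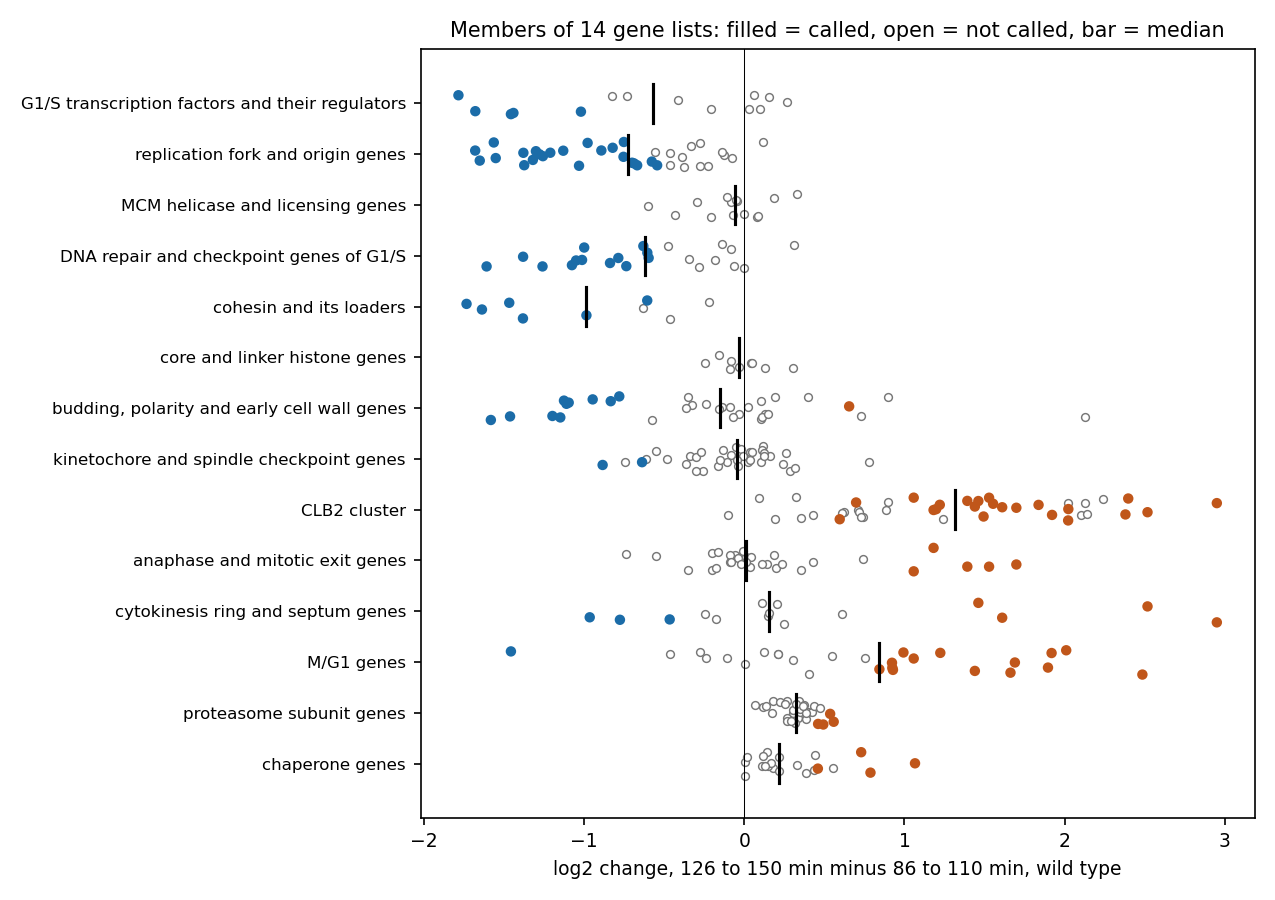
Each point is the log2 change of 1 gene from 86 to 110 min to 126 to 150 min in the wild type, in 14 gene lists; filled points were called at an adjusted p under 0.05, open points were not, and black bars are list medians. The list medians run from -0.99 for cohesin to 1.32 for the CLB2 cluster.

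The CLB2 cluster rose as a group. Of 42 measured genes 22 rose and 0 fell (32 and 0 with the block), with a median of 1.32, where 1.80% of all genes rose. HOF1, which had the largest rise, read 8.12, 8.04, 8.13 and 9.76 at 86 to 110 min and 11.40, 11.22, 11.69 and 11.54 at 126 to 150 min. The arrays at 86, 94 and 102 min were below background, that at 110 min stood apart from them, and all 4 later arrays were higher. Its change of 2.95 corresponds to 7.72-fold (adjusted p = 0.00753). CHS2, the chitin synthase of the primary septum, rose by 2.52 ± 0.34 (adjusted p = 0.0249), YNL058C by 2.40 ± 0.12 and MMR1, which tethers mitochondria in the bud, by 2.02 ± 0.19.

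SWI5, the factor of the next wave, stood at 8.14, 8.78, 8.72 and 10.59 in the earlier and at 11.52, 11.30, 11.48 and 11.44 in the later window. The groups did not overlap, and SWI5 rose by 2.38 ± 0.41 (adjusted p = 0.049, close to the threshold). The other factors of this step gave no call between the windows. FKH1 differed by 0.40 ± 0.15, FKH2 by 0.32 ± 0.10, MCM1 by 0.04 ± 0.07 and NDD1 by -0.03 ± 0.19, with adjusted p values from 0.187 to 0.951. NDD1, the co-activator of Fkh2, read 9.92 at 86 min, 11.20 at 118 min and 9.92 at 142 min, and its changes in the 2 cultures had opposite signs.

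Most genes of anaphase and mitotic exit gave no call. Of 32 genes 5 rose and 0 fell (7 and 1 with the block), and the median was 0.01. CDC20, the activator of the anaphase-promoting complex, read 9.50, 9.31, 9.31 and 9.80 and then 10.97, 10.73, 11.20 and 11.13, a rise of 1.53 ± 0.10 (adjusted p = 0.00387) with no overlap. CDC5 rose by 1.70 ± 0.24 (adjusted p = 0.0298), SPO12, a regulator of Cdc14 release, by 1.39 ± 0.10, MOB1, a mitotic exit network subunit, by 1.18 ± 0.08 and AMN1, an antagonist of that network, by 1.06 ± 0.08. The windows of AMN1 overlapped, at 11.03 at 102 min and 11.02 at 126 min, and it read 12.74 at both 142 and 150 min. PDS1, which encodes securin, differed by -0.35 ± 0.11 (adjusted p = 0.168) and CDH1, the later activator of the same complex, by 0.04 ± 0.12. KIN3, a kinase related to NIMA, rose by 1.84 ± 0.10 (adjusted p = 0.00335). It read between 8.06 and 8.56 on the 4 earlier arrays, all below background, and 9.83, 9.73, 10.61 and 10.43 on the later ones.

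Cytokinesis genes moved in both directions. MYO1, the myosin of the ring, rose by 1.61 ± 0.12 and IQG1, its IQGAP partner, by 1.46 ± 0.10. Among the 15 genes of the list 4 rose, including HOF1 and CHS2, and BNI4, which recruits chitin synthase to the young bud neck (-0.96 ± 0.10), CHS3, the synthase of that ring (-0.47 ± 0.07), and BNR1, a formin of the bud neck, fell. Of 14 septins and septin kinases 3 fell and 0 rose. These were KCC4 (-1.66 ± 0.09) and GIN4 (-1.21 ± 0.10), kinases at the septin ring, and SWE1 (-0.97 ± 0.14), the inhibitory kinase of Cdc28.

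Of 32 budding and cell wall genes of G1, 10 fell, 1 (BUD8, a bud site marker) rose and 21 gave no call, with a median of -0.15. With the block 11 fell and 2 rose. With the earlier window of culture 2 moved, 13 fell and 4 rose. AXL2, the axial bud site landmark, changed by -1.58 ± 0.12, CSI2 by -1.46 ± 0.10, SVS1 by -1.20 ± 0.12, MNN1, a mannosyltransferase, by -1.15 ± 0.09 and TOS2, a polarity anchor, by -1.13 ± 0.09. CRH1, a cross-linker of chitin to glucan, fell by 1.10 ± 0.07. Spindle parts showed few calls by limma without the block. ASE1, the midzone bundler, rose by 1.33 ± 0.16 and TUB4, the gamma-tubulin gene, fell by 0.76 ± 0.08. Of 37 kinetochore and checkpoint genes MIF2 (-0.88 ± 0.13) and MTW1 (-0.64 ± 0.10) fell, where 4 fell and 1 rose with the block. Of 17 spindle pole body genes 0 were called by limma, 9 had an unadjusted p under 0.05 and 3 fell with the block. The moved window gave more calls here: 11 kinetochore and checkpoint genes fell and 1 rose, and 6 spindle pole body genes fell. Of 22 spindle motor and microtubule genes, 4 fell and 2 rose in that setting.

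The M/G1 genes formed the latest wave. Of the 27 measured genes of the M/G1 list 14 rose and 1, SWI4, fell, with a median of 0.84. The list mean was 10.24 to 10.48 on the 4 earlier arrays, 10.50 and 10.49 at 126 and 134 min and 11.78 and 11.72 at 142 and 150 min. Most of the increase thus lay within the later window, and the list mean went on to 12.29 at 158 min. DSE4, a daughter-specific glucanase, read 8.67, 8.72, 8.94 and 8.26 and then 9.77, 9.98, 12.40 and 12.38. Its rise of 2.48 ± 0.13 (adjusted p = 0.00277) took it from below background in all 4 earlier arrays.

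EGT2, a wall protein of cell separation, read 10.77, 10.14, 10.37 and 10.40 and then 11.39, 11.28, 13.37 and 13.30. All later arrays were higher, and the rise was 1.92 ± 0.12 (adjusted p = 0.00387). ASH1, the repressor of HO in daughter cells, read 10.21, 9.93, 9.99 and 9.42 and then 10.67, 10.55, 12.61 and 12.36, a rise of 1.66 ± 0.16 (adjusted p = 0.00959). SIC1 read between 9.19 and 9.56 on the earlier arrays and 9.64, 9.48, 11.14 and 10.88 on the later ones, so its windows overlapped at 134 min, and the change was 0.93 ± 0.10 (adjusted p = 0.0114). PST1, a wall protein, rose by 2.01 ± 0.09, PIR1, a wall glycoprotein, by 1.69 ± 0.10 and CTS1, the endochitinase of septum removal, by 1.22 ± 0.12. The windows of CTS1 overlapped too. It read 10.08 to 10.47 on the earlier arrays, 10.25 and 10.34 at 126 and 134 min, and 12.75 and 12.64 at 142 and 150 min. CDC6, a licensing factor of this wave, differed by -0.11 ± 0.16 and PCL2 by -0.46 ± 0.14, without a call.

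The order within the later window was examined for all called genes, as a description without a test. Both arrays at 142 and 150 min were above both arrays at 126 and 134 min for 76 of the 98 risers, which is 77.6% against 22.5% of all genes. They were below for 127 of the 151 fallers, which is 84.1% against 21.4%. On the 13 arrays from 70 to 166 min, 10 risers had their highest value at 126 to 134 min, 33 at 142 to 150 min and 55 at 158 to 166 min, after the window. The shares of these times were 10.2%, 33.7% and 56.1%, against 7.62%, 8.20% and 17.9% of all genes. For the fallers, the highest value came at 94 to 110 min in 135 of 151 genes (89.4%, against 20.7% of all genes) and the lowest at 142 to 150 min in 108 (71.5%, against 13.2%). The called genes were selected on 8 of these arrays.

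Outside the cell cycle lists, some genes of protein quality control rose. Of 33 proteasome subunit genes 4 rose and 0 fell (12 and 0 with the block), with a median of 0.32. RPT2, an ATPase of the regulatory particle, stood at 11.21, 11.14, 11.26 and 11.33 and then at 11.62, 11.71, 11.97 and 11.88. The groups did not overlap, and RPT2 rose by 0.56 ± 0.07 (adjusted p = 0.0192). RPN5, RPN2 and RPN6, lid and base subunits, rose by 0.54, 0.49 and 0.46. Of 21 chaperone genes 4 rose (8 with the block, median 0.22), namely HSP82, the inducible Hsp90 (1.07 ± 0.09, adjusted p = 0.00601), HSP104, the disaggregase (0.79 ± 0.13), HSP78, its mitochondrial relative (0.73 ± 0.07), and STI1, an Hsp90 co-chaperone (0.46 ± 0.07). HSP82 read 11.14, 10.91, 11.08 and 11.62 and then 12.13, 12.19, 12.36 and 12.34, with no overlap.

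Most housekeeping lists gave no call. The lists of 51 ribosome biogenesis factors, 19 ribosomal protein genes with a single copy, 22 translation factors, 35 respiratory chain genes, 53 mitochondrial ribosomal protein genes, 15 glycolytic genes, 28 nuclear pore and import genes and 29 secretory pathway genes had 0 members called by limma, and their medians lay between -0.13 and 0.09. Of these 252 genes 13 had an unadjusted p under 0.05, against 1084 of all 5449 genes, and 2 were called with the block. Isolated calls came in other lists. GPD1, of glycerol synthesis, rose by 1.04 ± 0.13 and DCS2 by 0.62 ± 0.08 among 29 stress genes. GLK1, a glucokinase, rose by 0.64 ± 0.09, PHM8, a phosphatase of the phosphate regulon, by 0.65 ± 0.10 and ARG3, of arginine synthesis, by 0.61 ± 0.08. GCV2, of the glycine cleavage complex, fell by 0.57 ± 0.08, and among 8 a-specific genes MFA1 fell by 1.15 ± 0.11 and AGA1, an agglutinin subunit, fell by 0.64 ± 0.08. With the block, calls went from 2 to 4 among the 29 stress genes, from 1 to 3 among 19 phosphate genes, from 1 to 5 among 48 amino acid genes and from 1 to 3 among 25 purine and one-carbon genes. FUS1, a gene of cell fusion, differed by -0.61 (adjusted p = 0.172, and 0.0468 with the block). The trehalose synthesis genes TPS1 and TPS2 differed by 0.48 (0.0836, and 0.0219 with the block) and 0.49 (0.222, and 0.0287 with the block).

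The written lists did not hold 118 of the 249 called genes. AIM44, which encodes a bud neck protein, rose by 2.19 ± 0.10 (adjusted p = 0.00277) and SFG1, a regulator of growth form, by 2.05 ± 0.22. YMR030W-A (2.62 ± 0.20) lies directly beside HOF1 in the R64 annotation and YMR001C-A (2.11 ± 0.31) directly beside CDC5, so it cannot be told from these files whether their probe sets read transcripts of their own. YEL076C-A, a subtelomeric reading frame (-1.73 ± 0.11), is uncertain for another reason, since its probe set carries the suffix for probes shared between similar transcripts, as do those of 9 called genes in all.

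The same interval was then read in the B-cyclin mutant, to ask which changes differ between the strains. The mutant arrays have the same 8 times, from 2 further cultures, with the sampling grids exchanged between culture numbers. In the earlier and later windows of the mutant, CLB2 read 8.20 and 7.98, CLB3 7.87 and 7.83 and CLB4 8.26 and 7.95, all below background. CLB1 read 11.90 and 11.56, CLB5 10.92 and 11.27 and CLB6 10.50 and 10.10, all above it, although the labels give CLB5 and CLB6 as disrupted. Whether their probe sets lie outside the disrupted parts was not tested. None of the 6 was called by limma's interaction term (adjusted p from 0.0806 for CLB5 to 0.908). Over all genes, 23 changes differed by limma's interaction term (0.422%), 21 more positive in the wild type and 2 more negative. Of the 21, 20 were wild-type risers, and both of the 2 were wild-type fallers. With the cultures as a block the count was 3 (KIN3, PST1 and PUT4), and without 1 of the 4 cultures in turn it was 0 to 3, so the named genes rest on all 4 cultures. The count at an unadjusted p under 0.05 was 456.

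**Figure D5:**
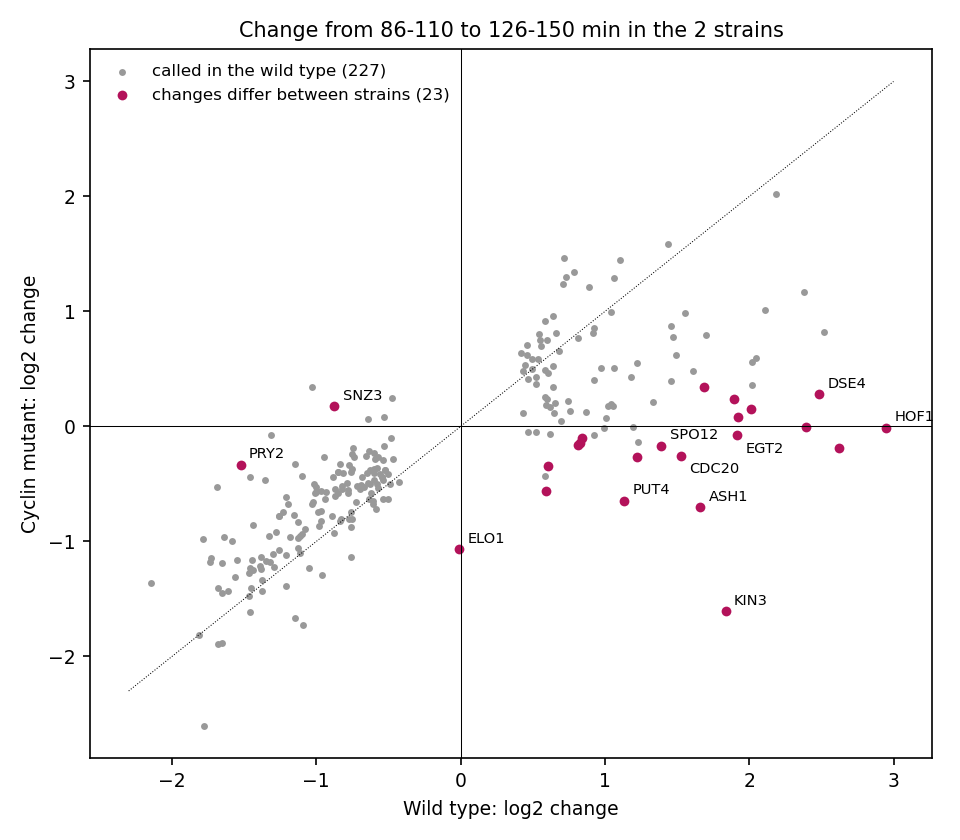
Each point is a gene called in the wild type or with a change that differs between strains, with its log2 change from 86 to 110 min to 126 to 150 min in the wild type on the x axis and in the cyclin mutant on the y axis; the dotted line marks equal change. The 23 genes in dark red differ by the interaction test, and KIN3 has a wild-type change of 1.84 and a mutant change of -1.60.

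The plot of both strains shows most fallers below 0 in the mutant too. Of the 151 wild-type fallers, 145 were below 0 in both mutant cultures, which is 96.03% against 36.9% of all genes, with a median of -0.63. POL12 changed by -1.40 there, CDC45 by -1.19 and MCD1 by -1.18. For PRY2, a sterol-binding secreted protein, the wild-type change was -1.52 ± 0.08 and that of the mutant -0.33. The strains differed by -1.19 ± 0.15 by the interaction test (adjusted p = 0.0324, and 0.0507 with the block). SNZ3, of vitamin B6 synthesis, was the other gene of this kind, with a wild-type change of -0.88 and a mutant change of 0.18. The same test gave it an adjusted p of 0.0438, and of 0.0798 with the block.

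Of the 98 wild-type risers, 73 were above 0 in both mutant cultures (74.5%, against 43.2% of all genes), and their median change there was 0.41. The CLB2 cluster had a median of 0.29 in the mutant and 7 of its 42 genes differed by the interaction test. In the M/G1 list the mutant median was -0.03 and 7 of 27 genes differed. Over all genes, only KIN3, PST1 and PUT4 were called with the block. KIN3 rose by 1.84 in the wild type, where the mutant changed by -1.49 and -1.71 in its 2 cultures, and the difference was 3.44 ± 0.25 (adjusted p = 0.0111, and 0.0295 with the block). Its mean level in the mutant was 11.60 in the earlier and 9.99 in the later window, against 8.31 and 10.15 in the wild type. The strains were thus farther apart in the earlier window than in the later one. HOF1 changed by -0.01 in the mutant, giving a difference of 2.96 ± 0.33 (adjusted p = 0.0200, and 0.0507 with the block). CDC20 changed by -0.26 there, giving 1.79 ± 0.16 (adjusted p = 0.0111, and 0.0507 with the block). ASH1 changed by -0.70, DSE4 by 0.28 and EGT2 by -0.07 in the mutant, with strain differences of 2.37 ± 0.28, 2.20 ± 0.19 and 1.99 ± 0.22. By the interaction test their adjusted p values were 0.0247, 0.0111 and 0.0193, and 0.104, 0.0507 and 0.0763 with the block.

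Other risers had positive changes in both strains. AIM44 changed by 2.19 in wild-type and by 2.02 in mutant cells, SWI5 by 2.38 and 1.17, and SIC1 by 0.93 and 0.86. The proteasome list had a median of 0.50 and the chaperone list one of 0.38 in the mutant. The interaction test did not call these genes, which does not show that the strains were alike.

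In the second cycle, 96 min later, the same interval gave 0 called genes of 5449 (0% called). Limma's smallest adjusted p was 0.156, and 187 genes had an unadjusted p under 0.05; with the culture as a block 1 gene, ARO10, was called, and 416 had an unadjusted p under 0.05. The later window had 4 arrays and the earlier one 3, of which culture 2 gave 1, at 182 min, and differences were small. The median over the 151 first-cycle fallers was -0.16 and over the 98 risers 0.16. Most called genes kept their direction. Of the 151 fallers 121 were below 0 in both cultures (80.1%, against 27.8% of all genes), and 63 of the 98 risers were above 0 in both (64.3%, against 25.3%). In culture 2 alone, 65 risers were above 0 and 33 below. Between these windows the M/G1 list had a median difference of -0.05. Its mean was 12.14 on the 182 min array, against 10.42 at 86 min in the same culture. The list mean did climb again, from 11.19 at 206 min to 11.85 at 238 min in culture 1. In culture 2 it went from 11.21 at 214 min, an array in neither window, to 11.86 at 246 min. As the plot of list means shows, oscillations of the replication and CLB2 cluster lists were shallower from 182 min on.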

How the data were processed

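Total RNA of 58 samples was labelled with biotin by the GeneChip One-Cycle procedure and read on Affymetrix yeast arrays, per the labels. The deposited table holds an intensity on a linear scale for each of 10928 probe sets. Per the submitters' processing notes it was made with affy 1.8.1; how signals were summarised and scaled is not stated in the labels. On the 8 arrays the mean intensity was 2077 to 2100, and the number of arrays limits the precision.

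Of the probe sets, 7245 were named by the platform annotation, 5498 as yeast genes of R64, giving 5449 genes (the brightest probe set where a gene had several). Values were log2(intensity + 1). Arrays of a culture were averaged per window, and the 4 means were fitted with limma 3.58.1 in R 4.3.3, without a block, with Benjamini-Hochberg adjustment over all genes. ± is the standard error of the fit. Cultures are separate samples per the labels, and p-values measure the spread between them. That spread includes the unlike sampling times of the cultures. The culture numbers pair the windows, since the same culture was sampled in both: deviations of a culture from the window means correlated at r = 0.50 between the windows over genes. Blocked values of the comparison of windows are given where they change the call of a named gene or move a count printed here by over 1.5 times. For the interaction, the genes called with the block are named. The interaction was fitted on 8 means of both strains. The unblocked fit of the windows and the unblocked interaction fit were tested on simulated data with independent noise. The other fits were not.

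The times, the 52 gene lists and the rules were chosen with earlier results of these data known. Genes were named by rule: the 15 largest rises and falls among called genes with the same sign in both cultures, up to 5 called members per list (or the first 2 in a list without calls), fixed regulators, stage markers and the 10 largest interaction terms of each sign. BUD4, AIM20, BUD8, BNR1, PUT4 and ARO10 were named after their values were seen. Promoter and protein sequences were not used here.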

Additional observations from a re-analysis of the deposited data

Results flagged for a closer look

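On the earlier arrays HOF1 stood at 9.76 at 110 min in culture 1, far above the other 3 arrays of that window, which read 8.04 to 8.13. This was 1 of 58 windows of 4 arrays examined for 29 genes, and chance marks about 1 in 20 such groups. The 118 min array of culture 2, outside the window, read 9.74.

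The change from 86 to 110 min to 126 to 150 min differed between wild type and mutant, by limma's interaction term, in 23 genes, given here as the wild-type change minus the mutant change on the log2 scale. Differences above 2 were found for KIN3 (3.44), HOF1 (2.96), YMR030W-A (2.81), YNL058C (2.40), ASH1 (2.37) and DSE4 (2.20). EGT2 (1.99), PST1 (1.86), IRC8 (1.84), CDC20 (1.79), PUT4 (1.78), PCL9 (1.65) and SPO12 (1.56) followed. Smaller positive differences were those of YML119W (1.49), PIR1 (1.35), HAP1 (1.15), ELO1 (1.06), SPS4 (0.97), LOT5 (0.97), ARG3 (0.95) and RME1 (0.94). ELO1, a fatty acid elongase, changed by -0.01 in the wild type and by -1.07 in the mutant. The negative differences were -1.05 for SNZ3 and -1.19 for PRY2.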

How the results depend on the processing

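The count of 249 changed genes was 502 with the culture as a replicate block, 1111 with 8 single arrays and a replicate block, 150 with narrow windows (94 and 102 against 134 and 142 min) and 111 with a difference of at least 1 required. Chosen after seeing the data, it was 483 without the 86 min array, 511 with the earlier window of culture 2 at 102 and 118 min and 1614 with that window and a replicate block. It was 219 to 303 under the other settings (spread shared with the mutant, quantile normalization, median centred arrays, pseudocount 64, genes above background, trend and robust prior). Leaving out a culture gave 0 to 29 calls: 29 without culture 1 and 0 without culture 2, where 890 genes had an unadjusted p under 0.05. Those fits took the 2 single arrays per window of the other culture as replicates. Their spread is therefore that between times within 1 culture. Of the 173 named genes 96 were called, 49 with narrow windows, 0 to 19 without a culture, and 88 to 121 otherwise. NRM1 turned from 0.10 to -0.40 with the moved window (adjusted p = 0.0280, and 0.00423 with the block), and the cause was not tested; no other named gene that either fit called changed sign. The medians of 17 lists kept their sign in 235 of 238 list and setting pairs; the anaphase list, near 0, did not in 3. The 23 strain differences became 3 with a replicate block, 14 among genes above background, 19 with quantile normalization and 0 to 3 without 1 culture. The second cycle gave 0 calls, 1 with a replicate block and 0 with both cycles fitted together. Motif counts in promoters were not run.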
